A study of Mus musculus with 55 samples.

Results

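Lung transcripts were compared between mice that drank water with 10 ppb sodium arsenite for 5 weeks and mice that drank water without it, all kept on LRD-5001, a grain-based laboratory chow. The exposed group held 4 of its 5 mice (replicates A, B, D and E; replicate C was left out for the low quality of its array) and the control group 4 mice (replicates A, C, E and F), 8 of the 55 mice of the series. All were male C57BL/6 mice, 6 weeks old when they started 2 weeks of acclimation to the diet, with no arsenite in the food and no injection. Total RNA of 1 frozen lung sample per mouse was hybridised to 1 Affymetrix whole-genome mouse array, and values are on the log2 scale after robust multi-array averaging (RMA), where a difference of 1 is a doubling. LRD mice given 100 ppb in water (3) or 10 ppb in food (5), and mice on the purified AIN-76A diet given 10 ppb in water (4) or none (5), served for comparison. The labels do not say whether mice shared a cage or litter, and chow carries arsenic of its own that was not measured in these files.

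Arsenite is taken up through aquaglyceroporins and glucose transporters, bound by glutathione, methylated by As3mt and exported by Abcc transporters. At toxic doses it releases Nrf2 from Keap1, which turns on antioxidant genes, and it unfolds proteins, which turns on heat shock and amino acid response genes. In lung, the article on the AIN-76A mice reported changed innate immune genes, with interleukin-1 signaling among them. It also named genes of cell adhesion and migration.

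No probe set passed an adjusted p of 0.05 between the exposed and the control LRD mice (limma on 16 LRD mice, 45037 probe sets, 0% called, smallest adjusted p 0.998). At an unadjusted p under 0.05, 704 probe sets (1.56%) were higher and 953 (2.12%) lower in exposed lung. That split depended on scaling: 1608 were higher and 420 lower once each array was centred on its own median, and 842 were higher and 708 lower after quantile normalization. The array medians themselves were 4.256 to 4.272 in exposed and 4.289 to 4.34 in control mice. The split also depended on brightness: of the 20109 probe sets that read above 5 in at least 4 mice, 356 were higher and 130 lower. Of all probe sets, 98.8% differed by less than 0.5 on the log2 scale. The median gene of 18193 was 0.02 higher, and the 95% confidence interval of the median gene reached 0.286 to either side. Of these genes 55.1% were higher, and 66.6% of the 11484 that read above 5 in at least 4 mice. All 4 exposed mice lay above all 4 control mice at 460 probe sets (1.02%) and below them at 543 (1.21%). The p-values measure the spread between mice, since each array is another animal.

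Some arrays stood apart. The left-out replicate C correlated with its group at 0.954 where the other LRD arrays had at least 0.985, and its thymocyte and T cell markers were at 7.79 and 8.16 where the other exposed mice had 4.29 to 4.78 and 5.59 to 6.02. Among the 4 control mice, replicate A held liver and heart muscle transcripts: its 7 liver markers averaged 10.95 against 4.76 to 6.57 in the other control mice and 4.56 to 5.12 in exposed mice, and its 12 heart muscle markers averaged 11.25 against 8.05 to 8.81 and 7.39 to 9.05. Albumin (Alb) read 13.35 in control A, 8.91 in control E and 4.50 and 5.07 in controls C and F, against 4.96, 4.76, 6.31 and 4.82 in exposed A, B, D and E. Nppa, the atrial natriuretic peptide of heart muscle, read 13.49 in control A and 6.14 to 8.98 elsewhere. Control F lay more than 1 above the median of the other 7 mice at 81 genes and more than 1 below it at 120, against 5 to 64 and 2 to 57 for the mice other than controls A and F. Of the lung markers, those of alveolar type II cells averaged 12.51 to 12.83 in exposed and 12.55 to 12.84 in control mice. Endothelial markers were lowest in control A, at 10.09 against 10.43 to 10.62 in the other 7 mice, and club and secretory airway markers in exposed A, at 10.22 against 11.52 to 12.34. Ciliated airway markers averaged 7.53 to 7.74 in exposed and 7.44 to 7.68 in control mice.

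**Figure D1:**
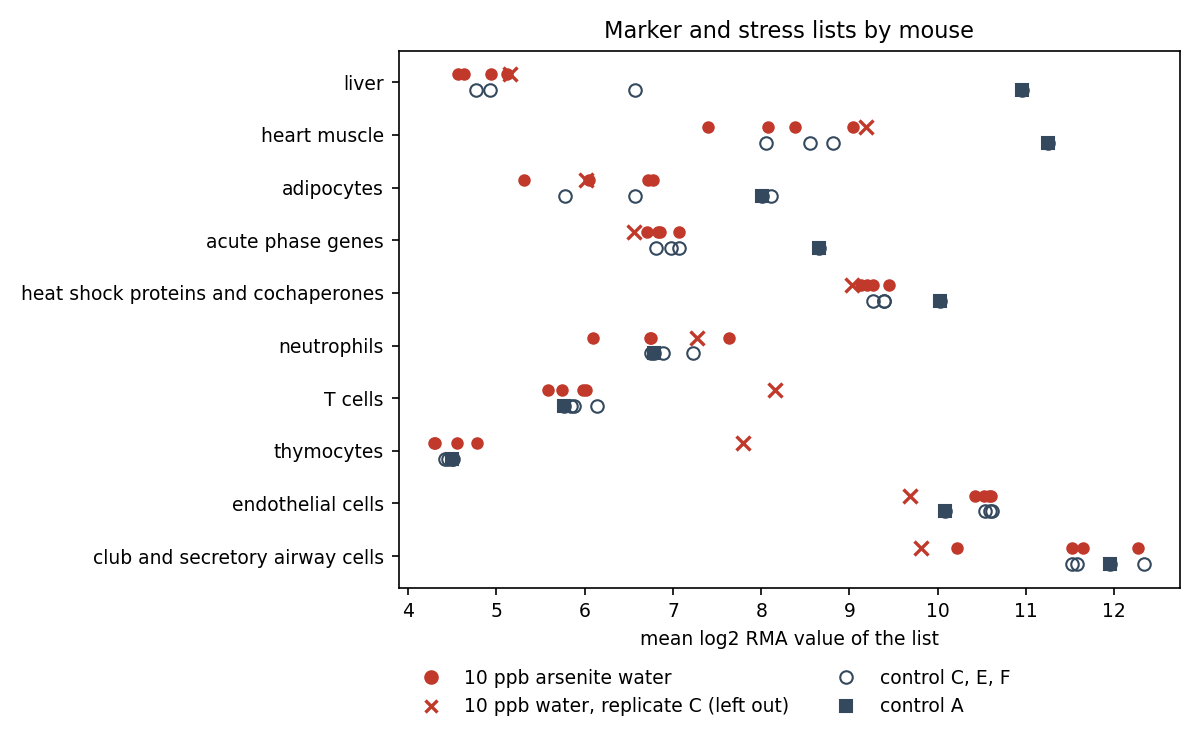
Mean log2 RMA value of marker and stress gene lists (x axis) in each mouse: filled circles are the 4 exposed mice, open circles controls C, E and F, the square control A, and the cross the left-out exposed replicate C. Control A is far right for liver (10.95) and heart muscle (11.25), and the cross for T cells (8.16) and thymocytes (7.79).

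Among named probe sets that did not overlap between the groups, had an unadjusted p under 0.01 and read at least 6, Arg2 had the largest higher value. Arg2 encodes the mitochondrial arginase, which splits arginine into ornithine and urea. It read 6.40, 6.69, 6.50 and 7.30 in exposed A, B, D and E and 6.12, 6.15, 6.07 and 5.50 in controls A, C, E and F, a difference of 0.76 ± 0.21 (SE). The gap between the groups was narrow, exposed E was the highest mouse and control F the lowest, and the other Arg2 probe set differed by a like 0.79. Without control A the difference was 0.82, and without control F or without exposed E it was below 0.76. Arrays whose raw files share a name prefix form sets, and exposed E and control A were the only exposed and control mice in 1 set: within it Arg2 differed by 1.18, Ces2b by 0.18, Asns by 0.22 and Dgat2 by -1.21.

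Of the 22 probe sets that met this rule on the higher side the 15 with the largest difference are named, and no adjusted p of theirs was under 0.998. Their difference chose them, so it is a description, and the exact permutation p of each is the 0.0286 that the design allows at best. Ces2b, a carboxylesterase, read 6.73, 6.61, 6.58 and 6.61 in exposed mice and 6.43, 5.59, 5.81 and 5.93 in control mice, 0.69 ± 0.16 higher. The exposed mice were close together, and control A was the control nearest to them. Dck, the deoxycytidine kinase that salvages nucleosides, differed by 0.70 ± 0.23, and Bcl2l1, the antiapoptotic Bcl-xL, by 0.51 ± 0.17, with 7.23, 7.71, 7.09 and 7.26 in exposed mice against 6.80, 6.96, 6.45 and 7.03. Casp4, the inflammatory caspase that senses cytosolic lipopolysaccharide, read 7.50, 7.51, 7.30 and 7.70 in exposed mice and 7.24, 7.26, 7.19 and 6.56 in control mice, 0.44 ± 0.14 higher, with control F lowest. Clec1a, a C-type lectin of endothelial and myeloid cells, was 0.46 higher. Ccn5, a matricellular protein of smooth muscle, was 0.40 higher with exposed mice at 8.13 to 8.52 and control mice at 7.68 to 7.98. The rest were Orc4 (0.47, origin recognition), Ccnt2 (0.46, a cyclin of transcription elongation), Slc41a2 (0.44, a magnesium transporter), Arhgap22 (0.43, a Rac regulator), Ccdc88a (0.39, girdin, an actin binder), Gdpd1 (0.38, a lysophospholipase D), Metap2 (0.37, methionine aminopeptidase) and Asns (0.42, asparagine synthetase). For several of them another probe set of the gene showed less: Ccnt2 ran from -0.30 to 0.46 over its 5 probe sets, Metap2 from 0.02 to 0.37, and the brighter Gdpd1 probe set differed by 0.01. The other Clec1a probe set differed by 0.11, and the other Dck ones by 0.26 and -0.07. Against that, 3 of the 4 Bcl2l1 probe sets were higher by 0.21 to 0.51 and the dim one by 0.06.

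On the lower side 7 probe sets met the rule. Dgat2, which makes triglyceride in its last step, read 6.58, 6.56, 6.43 and 6.63 in exposed mice and 7.84, 7.45, 6.83 and 7.00 in control mice, a difference of -0.73 ± 0.19. Exposed mice were tightly grouped and controls spread over 1 unit, and the brighter Dgat2 probe set differed by -0.62. Without control A the difference was -0.54. Apoc1, an apolipoprotein of liver and macrophages, was at 7.23, 7.70, 7.64 and 7.64 against 10.14, 8.20, 8.34 and 7.98. Its difference of -1.11 fell to -0.62 without control A, the mouse with liver markers. Vdac1, the main pore of the outer mitochondrial membrane, read 9.44, 9.47, 9.57 and 9.28 against 9.82, 10.07, 9.59 and 9.73, a difference of -0.36 ± 0.11, and its 3 other probe sets above 8 differed by -0.125 to -0.162. Rbm5, a splicing regulator, differed by -0.25 and Snrnp48, a protein of the minor spliceosome, by -0.25. The other Rbm5 probe sets ran from -0.31 to 0.15. Those of Snrnp48 ran from -0.23 to 0.12, with -0.098 at the brightest. Usp28, a deubiquitinase, differed by -0.41. One Ighm probe set, for the immunoglobulin mu heavy chain, differed by -0.39, and the brightest Ighm probe set by -0.49 with more spread between mice.

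**Figure D2:**
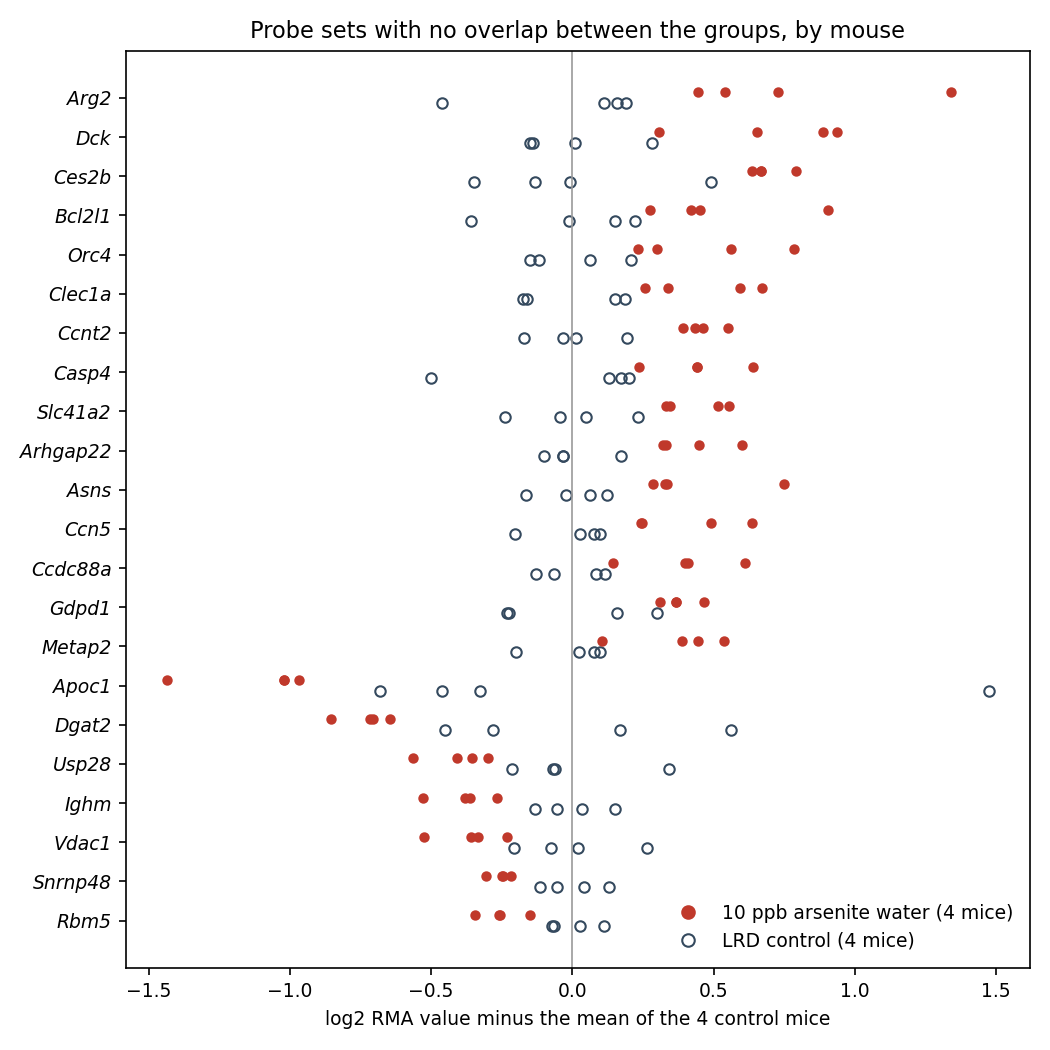
Log2 RMA value minus the mean of the 4 control mice (x axis) for the 22 named probe sets, 1 row a gene, filled circles for the 4 exposed and open circles for the 4 control mice. In every row the groups do not overlap, which the naming rule requires. Arg2 has the largest higher difference (0.76), and the control mouse at the far right of Apoc1 is control A.

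Asns belongs to the amino acid response, in which uncharged transfer RNA or misfolded protein raises Atf4, and Atf4 acts on genes through a composite element with the core TGATGNAA. The promoters of Asns and of Chac1, the glutathione-degrading enzyme of the same response, are shown because Asns met the naming rule and Chac1 was the one gene of this list of 22 whose brightest probe set did not overlap between the groups. Of all probe sets, 1.02% had all exposed mice above all control mice. Asns lies at chr6:7693160-7693459 on the minus strand and Chac1 at chr2:119350992-119351291 on the plus strand (RefSeq, GRCm38.p6), each from 250 bases before to 50 after the start of transcription, with capitals for the core on either strand.
Asns: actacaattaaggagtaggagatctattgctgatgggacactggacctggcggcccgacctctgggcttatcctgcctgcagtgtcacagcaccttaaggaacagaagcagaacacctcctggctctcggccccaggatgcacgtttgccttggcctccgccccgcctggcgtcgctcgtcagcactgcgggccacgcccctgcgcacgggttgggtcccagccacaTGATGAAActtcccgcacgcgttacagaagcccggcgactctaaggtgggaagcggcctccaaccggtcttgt
Chac1: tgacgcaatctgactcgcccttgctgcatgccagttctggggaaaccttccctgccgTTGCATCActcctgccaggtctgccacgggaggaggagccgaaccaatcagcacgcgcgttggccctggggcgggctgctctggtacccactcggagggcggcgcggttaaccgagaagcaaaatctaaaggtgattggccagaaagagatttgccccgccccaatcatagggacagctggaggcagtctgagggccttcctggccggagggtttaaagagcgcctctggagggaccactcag
The core begins at position -23 from the start in Asns and at -193 in Chac1, where it lies on the other strand. It occurs in 3.97% of all 32851 RefSeq promoters and in 6 of the 22 promoters found for 20 of the list's genes, a list put together from genes known for this response. Chac1 read 5.64, 5.94, 5.76 and 5.64 in exposed mice and 5.03, 5.55, 5.63 and 5.50 in control mice, 0.32 higher with a 95% confidence interval of -0.03 to 0.67. The Asns probe set shown above read 7.74, 7.33, 7.32 and 7.28 against 7.06, 6.97, 7.12 and 6.83, and the brighter one differed by 0.21 (-0.01 to 0.43). The list as a whole had 12 of 22 genes higher. Atf4 differed by -0.11 and Ddit3, its proapoptotic partner, by -0.13. Phgdh, which starts serine synthesis, differed by -0.23 (unadjusted p 0.0358, limma), and the list's median was 0.01.

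Over the 786 measured genes of all lists, 25 (3.18%) had an unadjusted p under 0.05, 10 higher and 15 lower, against 1.56% and 2.12% of all probe sets in these directions. All exposed mice lay above all control mice at 6 of the 786 genes and below them at 6, against 1.02% and 1.21% of all probe sets. Genes of arsenic handling showed no member with an unadjusted p under 0.05. As3mt, the arsenic methyltransferase, read 7.29, 7.07, 7.08 and 7.41 in exposed mice and 7.14, 7.25, 7.23 and 6.59 in control mice, 0.16 higher (-0.25 to 0.58). Aqp3, an aquaglyceroporin, was near the bottom of the scale in both groups, with all exposed mice (3.72 to 3.93) below all control mice (3.94 to 4.35), a difference of -0.25. Aqp9, the liver aquaglyceroporin, differed by -0.59 (-1.55 to 0.36) with a control SD of 1.42, and Abcc1, an exporter of arsenic-glutathione conjugates, by 0.10. Their 17 genes had a median of -0.08, which was 0.08 without control A.

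The 24 Nrf2 antioxidant genes had a median of 0.06, 15 of them higher and none with p under 0.05. Of all genes that read above 5, as 23 of the 24 did, 66.6% were higher. The sign of the Nrf2 median turned without control F (-0.00908) and with the array set as a block over 33 mice (-0.00431). Hmox1, heme oxygenase, read 5.82, 6.32, 6.96 and 6.24 in exposed mice and 6.09, 6.89, 6.44 and 6.52 in control mice, with a difference of -0.15 (-0.59 to 0.29). Nqo1, the quinone reductase, differed by 0.20 (-0.31 to 0.71), Gclc by 0.06 and Gclm by 0.09, the 2 subunits of the enzyme that limits glutathione synthesis. Exposed B had the highest Gclm of all 8 mice, 9.34 against 8.49 to 8.69 in the other 7. The intervals of Hmox1 and Nqo1 leave room for a decrease of 0.59 and an increase of 0.71.

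Heat shock genes were lower in exposed mice in 18 of 20 cases, with a median of -0.12 against 0.02 for all genes. Hspa1a, the inducible Hsp70, read 7.40, 9.13, 6.90 and 6.87 in exposed mice and 10.77, 7.26, 8.46 and 8.86 in control mice, a difference of -1.26 (-2.59 to 0.07) in which exposed B and control C crossed. Hspd1, the mitochondrial chaperonin, had p under 0.05: exposed mice read 10.05 to 10.15, all below the controls' 10.25 to 10.86, a difference of -0.31. Control A was the highest control in both, and without it the list's median was -0.06. Of all probe sets, 2.12% were lower at an unadjusted p under 0.05 and 1.21% had all exposed mice below all control mice.

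Mitochondrial respiratory chain genes were lower in 21 of 24 cases with a median of -0.11, and RNA splicing genes in 22 of 28 with -0.08. Cox6c, a subunit of cytochrome oxidase, read 11.65, 11.98, 11.75 and 11.91 in exposed mice and 12.08, 12.24, 12.01 and 12.01 in control mice, a difference of -0.26 (unadjusted p 0.0162, limma), and Cox4i1 differed by -0.11. Sdhb, of complex II, differed by -0.23 and Atp5b, of the ATP synthase, by -0.17. Control A, the mouse with heart muscle markers, had the highest mean of all 8 for both lists (11.18 and 9.53), and without it the medians were -0.04 and 0.02. Malat1 and Neat1, nuclear noncoding RNAs kept with the splicing genes, both had p under 0.05 and were lower, as were 2.12% of all probe sets.

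Immediate early genes, the first transcription factors made after a stimulus, were higher in 23 of 29 cases, with a median of 0.17. Of all genes that read above 5, as these 29 did, 66.6% were higher. Ier2 read 9.46, 9.59, 9.11 and 9.81 in exposed mice and 9.39, 8.93, 8.83 and 8.58 in control mice, 0.57 higher (0.16 to 0.97, unadjusted p 0.00941, limma), with exposed D and control A overlapping. Egr1 read 11.34, 11.68, 10.40 and 11.73 against 11.39, 10.40, 10.59 and 9.95, 0.70 higher (-0.06 to 1.47). Exposed D was low and control A high in both genes. The list's median ranged from 0.04 without control F to 0.37 without exposed D. With the set of arrays (by raw file name prefix) as a block over the 16 LRD mice it was 0.48. Exposed A and D were the only LRD mice of their set, so they add nothing to that value, which rests on exposed B and E.

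Of 24 glucocorticoid targets, 2 were higher and 1 lower at p under 0.05, against 1.56% and 2.12% of all probe sets. Zbtb16, a zinc finger factor induced by glucocorticoid, read 7.40, 7.73, 7.49 and 7.63 in exposed mice and 6.25, 7.59, 6.65 and 6.81 in control mice, 0.74 higher (0.14 to 1.34, unadjusted p 0.019, limma), with only control C inside the exposed range. Fkbp5, the cochaperone that dampens the glucocorticoid receptor, was 0.54 higher (0.07 to 1.00), where exposed D lay below control C. Tat, tyrosine aminotransferase, was lower by 0.92 with a control SD of 1.30 and belongs to liver. Per1, a clock gene that glucocorticoid also induces, differed by -0.32 (-0.95 to 0.31), and no clock gene had p under 0.05.

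**Figure D3:**
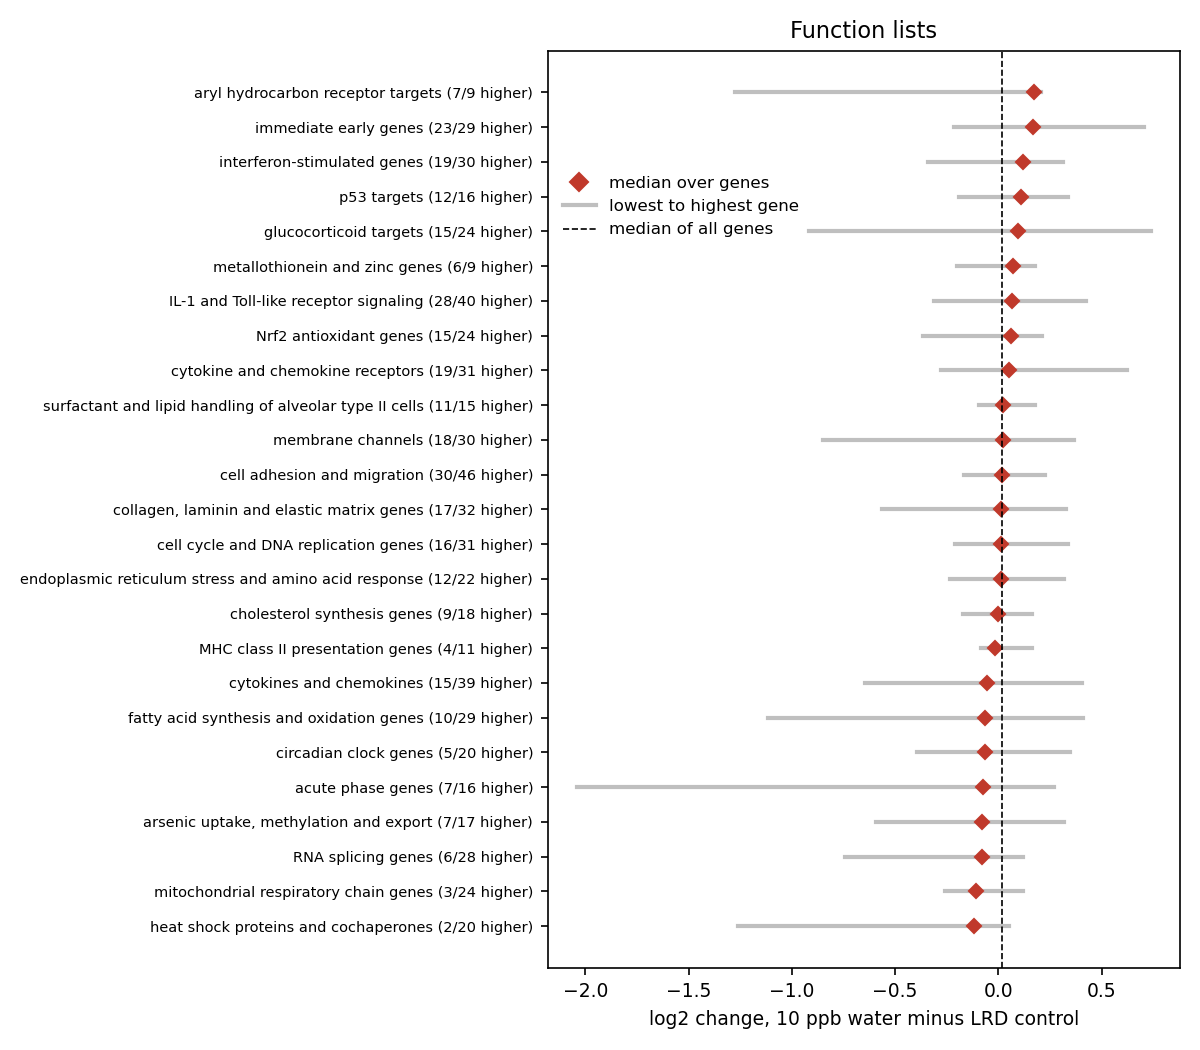
Log2 change, exposed minus control (x axis), of the 25 function lists, each with its median gene (diamond) and its lowest and highest gene (bar), and how many genes were higher. The dashed line is the median of all genes, 0.02; list medians ran from -0.12 for heat shock proteins to 0.17 for immediate early genes and aryl hydrocarbon receptor targets.

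Interleukin-1 and Toll-like receptor genes had 28 of 40 members higher and a median of 0.07, where 66.6% of the genes that read above 5 were. The median was 0.02 without exposed E, 0.04 without control A and 0.10 without exposed D. Il1b, the interleukin-1β cytokine, read 8.29, 8.28, 7.28 and 9.37 in exposed mice and 7.98, 7.48, 8.63 and 7.79 in control mice, a difference of 0.33 (-0.56 to 1.22; exact permutation p 0.543). The highest and the lowest of these 8 values were both exposed mice. Il1rn, the receptor antagonist, was 0.34 higher (0.00 to 0.67) and the one member with an unadjusted p under 0.05. Of all probe sets, 1.56% were higher at that p. Il1r2, the decoy receptor, differed by 0.23, Il1r1, the signaling receptor, by -0.08, and Myd88, the adaptor that both receptor families share, by 0.16. Tnf stayed low at 4.02 ± 0.26 (SD, n = 4) and 4.26 ± 0.35. Of the other genes the article on AIN-76A mice names, Adam10, a sheddase, differed by 0.11, Traf6, a ligase of the same pathway, by 0.05, Nfkbia, the NF-kappaB inhibitor, by -0.17 at its brightest probe set and by -0.03 to 0.35 at the 4 others, and the adhesion and migration genes Pecam1, Vcl and Rac1 by 0.02, 0.00 and 0.02. Scn3b, a sodium channel β subunit, was the one of the 12 with no overlap: 9.87, 10.02, 10.00 and 10.07 in exposed mice against 10.11, 10.10, 10.34 and 10.26, a difference of -0.21 (-0.47 to 0.05; exact permutation p 0.0286). Its dimmer probe set differed by 0.04. Of all probe sets, 1.21% had all exposed mice below all control mice.

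Granulocyte markers went different ways within the 12 neutrophil genes, 8 higher and 4 lower. Csf3r, the G-CSF receptor of mature neutrophils, was at 7.14, 7.15, 6.88 and 8.38 against 6.78, 6.72, 7.10 and 6.46, 0.62 higher (-0.14 to 1.39), while the granule genes Ngp, Ltf and Camp differed by -1.11, -1.06 and -0.85. Ngp read 4.43 in exposed D and 6.73 to 8.99 elsewhere. The mean of the neutrophil markers was lowest in exposed D (6.10) and highest in exposed E (7.63), the same mice that were lowest and highest for Il1b; control mice had 6.75 to 7.23. The part of granulocyte number in the Il1b values was not tested. In bulk lung, fewer cells of a type and less RNA per cell cannot be told apart. Of all genes that read above 5, as 27 of the 30 interferon-stimulated genes did, 66.6% were higher. Of the 30, 19 were higher, with a median of 0.12. The median was 0.07 without exposed A or without control A, 0.08 without control F and 0.19 without control E. Ddx58, the RIG-I sensor of viral RNA, read 8.05, 7.89, 7.96 and 8.03 in exposed mice against 7.73, 7.79, 7.79 and 7.68, with no overlap and 0.23 higher. Of all probe sets, 1.02% had all exposed mice above all control mice.

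All 9 adipocyte genes were lower, with a median of -1.06, but none had p under 0.05. The median was -0.66 without exposed A and -0.63 without control C. With the array set as a block over the 16 LRD mice it was -0.47, a value to which exposed A and D add nothing. Adipoq, adiponectin, read 5.66, 8.35, 7.48 and 8.96 in exposed mice and 9.98, 9.68, 8.96 and 7.06 in control mice. Ucp1, of brown fat, differed by -1.42 (-3.27 to 0.42) and Fabp4 by -1.02. The list's mean was 8.01 and 8.11 in controls A and C, 6.57 and 5.78 in controls E and F and 5.31 to 6.77 in exposed mice. Dgat2 was high in the same 2 controls. The part of fat tissue in the Dgat2 difference was not tested. All 12 heart muscle genes were lower too, with a median of -0.90 that was -0.26 without control A and -0.59 without exposed A, and all 7 liver genes, with -2.04 and -0.62. Of the 16 acute phase genes, made mainly in liver, 4 were lower at p under 0.05 (Saa1, Saa2, Orm1 and Cfb), against 2.12% of all probe sets. Orm1 read 8.98 in control A and 3.53 to 4.82 in the other 7 mice. Without control A the acute phase median went from -0.08 to 0.02.

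The choice of test changed what was listed. A rank product, which ranks the 16 differences between single exposed and control mice, listed 3 probe sets as higher and 53 as lower with an estimated false-positive share below 0.05. Control A was the highest mouse in 43 of the 53, among them liver secretory genes such as Ttr, Serpina1b, Apoa1 and Alb, the heart peptide Nppa and the heat shock genes Hspa1a and Hspa1b. Without control A, 14 probe sets were listed as higher and 3 as lower. The higher ones then included Arg2 (its dimmer probe set), Dck, Ces2b, Egr1 and Egr2. Control F was the lowest mouse in most of the 14, among them Arg2, Egr1 and Egr2, and control C was lowest for Dck and Ces2b. Exposed A was the highest mouse for several, Ces2b among them. Of the lower ones Erdr1, an erythroid differentiation regulator, was highest in control C. The others were Serpina1c, a liver secretory gene, and a probe set without a single gene symbol. Liver markers averaged 6.57 in control E, against 4.76 and 4.92 in controls C and F. Rank products take all probe sets to vary alike, so variable genes are listed more readily than in limma.

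Differences between the LRD exposures were small as well. Against mice with 10 ppb in food, 2632 probe sets (5.84%) had an unadjusted p under 0.05 and none passed adjustment (smallest 0.813, limma). Against mice with 100 ppb in water the count was 1393 (3.09%; smallest adjusted p 0.999). Each exposure was set against the same 4 control mice, so their changes share them. Arg2 differed from control by 0.76 with 10 ppb in water, 0.88 with 10 ppb in food and 0.68 with 100 ppb in water. For Ces2b the values were 0.69, 0.30 and 0.33, for Dgat2 -0.73, -0.47 and -0.79, and for Il1b 0.33, 0.91 and 1.00. Between 10 ppb in water and in food, Arg2 differed by -0.11 and Ccnt2 by 0.44, and neither passed adjustment.

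The same dose in water gave other values on the AIN-76A diet. The difference between the 2 diets in the change with 10 ppb (interaction term, limma on 33 uninjected mice) had an unadjusted p under 0.05 at 5068 probe sets (11.3%), and none passed adjustment (smallest 0.38). Il1b fell from a control mean of 9.78 to 8.13 in AIN-76A mice, a change of -1.65, and the diets differed by 1.98 (unadjusted p 0.0145, adjusted 0.396). AIN-76A controls read 8.51, 10.55, 9.06, 10.67 and 10.11 and exposed mice 7.86, 8.28, 8.56 and 7.81, where 7 of the 8 LRD mice read 7.28 to 8.63 and exposed E 9.37. Trem1, an amplifier of myeloid inflammation, changed by 0.30 on LRD and by -1.41 on AIN-76A, and Tlr2 by 0.20 and -0.70. Zbtb16 changed by 0.74 and -1.44, a difference of 2.18 (unadjusted p 0.000165, adjusted 0.38). Arg2 changed by 0.76 and -1.36, and Dgat2 by -0.73 and 1.25, but these 2 were named for their LRD change, which is part of the difference. Il1b, Trem1, Tlr2 and Zbtb16 were chosen with their AIN-76A change known, so their differences are no independent evidence either. Markers of other tissues moved in the AIN-76A arm too: its exposed mice had adipocyte means from 5.66 to 10.54 and thymocyte means from 4.11 to 9.70, where controls had 5.03 to 6.63 and 4.20 to 4.33, and neutrophil means reached 9.28 in its controls. The part of these in the differences was not tested. Without the AIN-76A exposed mice A and E the Il1b difference was 1.69 (unadjusted p 0.0626) and that of Zbtb16 2.24.

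**Figure D4:**
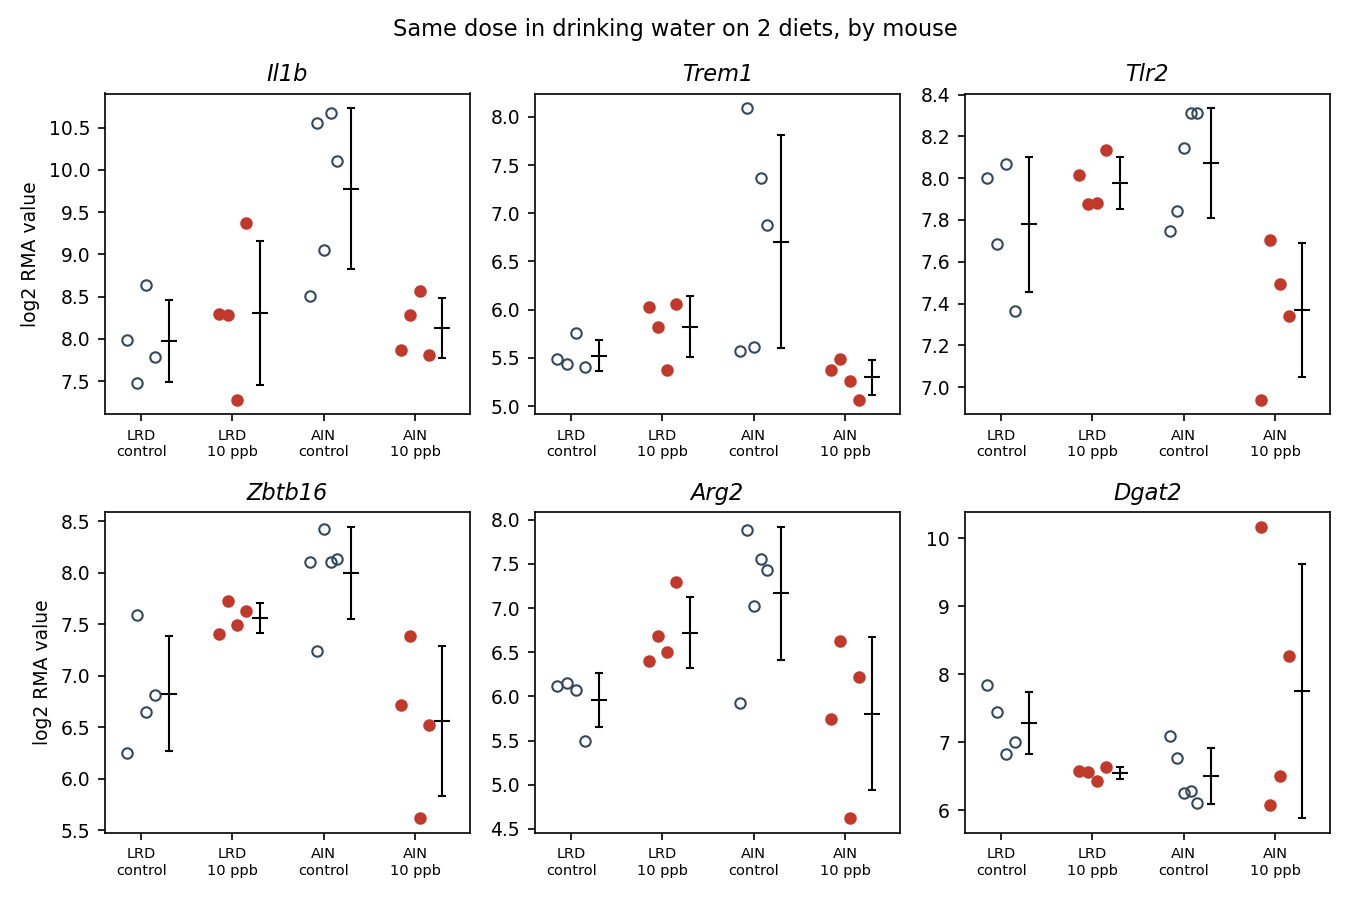
Log2 RMA value (y axis, its own range in each panel) of 6 genes in single mice, open circles for control and filled for 10 ppb arsenite in water, on LRD (4 and 4 mice) and AIN-76A (5 and 4 mice); the bar beside each group is its mean ± SD. Il1b of the LRD controls (7.48 to 8.63) lies below 4 of the 5 AIN-76A controls, and Zbtb16 is higher with arsenite on LRD and lower on AIN-76A.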

How the data were processed

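The authors deposited log2 expression values of 45101 probe sets on 55 arrays, made with RMA per the labels; normalization settings beyond that are not given in the sources used here. The deposited arrays do not share 1 distribution: their medians ran from 4.245 to 4.829 and their SDs from 1.172 to 2.418. The 4.829 and the 1.172 belong to 1 low-quality array of an arsenite-injected AIN-76A mouse, which entered no comparison here. In the mice compared, array medians were 4.256 to 4.272 with exposure and 4.289 to 4.34 in controls, without overlap. The number of arrays limits the precision. After leaving out 64 control probe sets, each probe set was fitted with limma (version 3.58.1, R 4.3.3) in 4 group means over the 16 LRD mice, and p-values were adjusted by Benjamini-Hochberg over all 45037. A gene is its brightest probe set; 34945 probe sets had 1 symbol, 932 several and 9160 none. Named genes are up to 15 a direction by size of difference with unadjusted p under 0.01, no overlap and a group mean of at least 6, the first 4 genes of a described list, and the article's genes; others were chosen after their values were seen. The members and lists were chosen with earlier results of these data known. Fits were tested on simulated data. Arrays fall into 5 sets of 11 by raw file name prefix, used as a block. The rank product shuffled values within each array over 100 orderings, so that differences sharing a mouse stayed dependent.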

Additional observations from a re-analysis of the deposited data

Results flagged for a closer look

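Of 170 groups of 4 values checked for 1 mouse far from the other 3, 14 were set apart, where chance gives about 1 in 20. Control A stood apart for Apoc1 (10.136), for the means of heat shock genes (10.029), acute phase genes (8.654) and alveolar macrophage markers (9.230), which were high, and for endothelial markers (10.086), which were low. Control F was the mouse apart for Arg2 (5.498), Casp4 (6.562) and, on the high side, Myd88 (8.795). Exposed A was apart for Asns (7.743) and Tnf (4.415) as the highest mouse and for Apoc1 (7.229) and the surfactant genes (10.970) as the lowest. Exposed D had the lowest Vcl (10.721). Exposed E had the highest mean of cytokine and chemokine receptors (7.244), the same mouse that was highest for Il1b and Csf3r.

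The left-out exposed replicate C carried signal that no control mouse had: its thymocyte markers averaged 7.788, its T cell markers 8.157 and its cell cycle and DNA replication genes 7.693, where control mice had 4.42 to 4.51, 5.76 to 6.14 and 6.11 to 6.35. Its bright probe sets were also lower (median change -0.245) and its faint ones higher (0.166) against control than in the 4 mice kept (0.055 and -0.032).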

How the results depend on the processing

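No probe set passed an adjusted p of 0.05 between exposed and control mice in any limma fit tried, while the rank product listed 3 higher and 53 lower, 14 and 3 without control A (chosen after seeing the data), and 2155 and 2206 at plain p. Shuffling the 16 differences independently, which treats mice shared between differences as separate, listed 2606 and 2699 (also chosen later). Counts at unadjusted p under 0.05 moved by over 1.5 times under these settings. With dim probe sets filtered out, 20109 probe sets were tested and not 45037, so these counts are taken from fewer probe sets. There were then 356 higher and 130 lower, against food 663 and 246, and against 100 ppb water 214 and 256. For the difference between diets 20784 were tested, with 468 lower. Replicate C left 508 lower, 812 against food and 465 against 100 ppb, and both low-quality arrays 775 and 637 between diets. Median centring gave 1608 and 420. The array set block, to whose differences exposed A and D add nothing, gave 621 and 606 against food and 539 lower against 100 ppb. Array weights gave 1289 and 1917 against 100 ppb, and leaving out AIN-76A mice A and E 1678 higher between diets.

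Replicate letters were not taken as pairs. Deviations of exposed and control mice with the letters A and E correlated at -0.051 and 0.158, against a median of 0.006 for other letters. So few pairs cannot settle whether the letters pair the mice. With the letter as a replicate block, 655 and 921 probe sets had p under 0.05 in the main comparison, 505 and 771 against food, 255 and 319 against 100 ppb water, and 1 probe set, Tspan11, passed adjustment for the difference between diets.

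Leaving out 1 mouse at a time gave 560 to 996 higher and 627 (without exposed D) to 1330 (without control E) lower in the main comparison. Against food the range was 730 (without exposed A) to 1749 (without exposed B) and 984 to 2037, against 100 ppb 395 to 1053 and 532 to 1717, the lowest 3 without exposed D and the highest without exposed B, and between diets 2046 to 3482 and 1496 to 2440. The named genes kept their direction in 417 of 418 values under alternatives, and Ccdc88a was at -0.0775 with replicate C. Their naming rule required no overlap between the groups, so leaving out mice could not turn their direction. That count is therefore no independent support. Only exposed E and control A share an array set, so array set and exposure are largely mixed. The sets rest on raw file name prefixes alone, so they may or may not be processing batches. The number of arrays a group limits the precision, and many probe sets read near background.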
